A study of Mus musculus with 6 samples.

Results

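The mitochondrial ribosomal protein genes were read in mouse splenic cells labelled as CD8+ T cells, activated in culture with or without sphingosine-1-phosphate (S1P), a blood-borne lipid that acts on S1PR1 and related receptors of lymphocytes. The gene table listed 56941 Ensembl identifiers, and the members were the protein-coding genes whose symbol is Mrpl or Mrps followed by a number and at most 1 letter. This rule gave 78 genes, 49 with an Mrpl symbol (large subunit) and 29 with an Mrps symbol (small subunit). By the labels, naive CD8+ T cells from spleens of B6 mice were stimulated for 3 days through CD3 and CD28 in 100 U/ml IL-2, and 5 µM S1P or its vehicle was added at 24 h. Both groups came from B6 mice, and no other genotype is named. There were 3 S1P-treated and 3 vehicle-treated libraries of polyadenylated RNA, labelled as biological replicates. The labels give neither the age of the mice nor the number of animals per culture, so that p-values measure the spread among these 6 libraries. The labels give purified naive CD8+ T cells as the starting material, whereas the methods also mention total splenocytes, and the sources used here do not settle which was used.

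Mitochondria carry their own ribosome, the mitoribosome, which translates the few messenger RNAs (mRNAs) of the mitochondrial genome into core subunits of the respiratory chain and of ATP synthase. Its ribosomal RNAs are transcribed inside the organelle, whereas all of its proteins are encoded in the nucleus, made in the cytosol and imported. Some of these proteins descend from bacterial ribosomal proteins and others have no bacterial counterpart. T cells enlarge their mitochondria and their mitochondrial translation after activation. The symbols follow an older naming, and the structural names used below (uL3m, bL12m, mL37 and the like) give the subunit, L or S, and the origin, with u for universal, b for bacterial and m for mitochondria-specific.

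After S1P, mRNAs of the mitochondrial ribosomal proteins were mostly lower than after vehicle. Of the 78 members, 22 fell (28.2%) and 1 rose, Mrpl32, a call being an adjusted p (edgeR quasi-likelihood test) no higher than 0.05 with a fold change of 0.3 or more, up or down, on the log2 scale. Among all 13299 tested genes, 10.4% were lower and 12.7% were higher by the same rule. The fitted change was below 0 for 68 members, and the median over the 78 was -0.23 on the log2 scale, beside 0.01 over all tested genes. In 42 members (53.8%) every S1P-treated library lay below every vehicle-treated one, which held for 22.6% of all tested genes. The opposite order held for Mrpl32 alone among the members and for 23.0% of all tested genes. With no fold threshold, 31 members were lower at an adjusted p of at most 0.05, compared with 13.8% of all tested genes, so that 9 members had a significant but smaller difference. Changes were moderate in size, the largest being -0.60, which is 65.8% of the vehicle level.

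The libraries held 12048880 to 17384084 counts, and all 78 members passed the filter on low counts, with 20 to 1453 counts per member and library. Levels are given as CPM, read counts relative to the library total after scaling by TMM factors, which ranged from 0.949 to 1.025. The second S1P-treated library stood apart from the others: 7.80% of its counts came from mitochondrially encoded genes, against 4.10% to 4.93% elsewhere, and it differed from the other S1P-treated libraries by a chi-square per gene of 31.4 and 17.9, where those differed by 5.97. Without it, 26 members were lower, 18 of them among the 22 above, and none was higher. Of 13657 genes tested in that fit, 1252 were lower and 1588 higher. Leaving out the second or the third vehicle-treated library instead gave 14 members lower. Over all tested genes, 1145 of 13755 and 961 of 13498 were then lower. Summed markers of CD8+ T cells stood at 1324 to 1428 CPM after S1P and 1479.9 to 1649.6 CPM after vehicle, and Cd8a itself at 132 to 144 and 207 to 251 CPM. Of the 7 markers, Cd3d (107 to 117 against 126 to 143 CPM), Cd3g (139 to 155 against 158 to 176 CPM), Cd8a and Cd8b1 (73.4 to 86.1 against 102 to 146 CPM) were lower in every S1P-treated library. The remaining 3 overlapped: Lck stood at 376 to 384 and 380.2 to 400 CPM, Cd3e at 212, 309.9 and 232 CPM after S1P and at 219, 225 and 236 CPM after vehicle, and Trac at 259 to 285 and 277 to 309 CPM. Markers of CD4+ T cells summed to 252, 319 and 266 CPM after S1P and 249.9, 229 and 272 CPM after vehicle, with Cd4 at 195 to 254 and 186 to 223 CPM, and Zbtb7b and Cd40lg were higher in every S1P-treated library. Foxp3 was at 6.86, 11 and 7.14 CPM after S1P and 7.78 to 8.62 CPM after vehicle. All 7 B cell markers were also detected, summing to 1119.7 to 1216 CPM after S1P and 1072 to 1306 CPM after vehicle, so that the B cell sums of the groups overlapped. Ighm gave 473 to 556 CPM of these. Within that list Ms4a1 (151 to 171 against 185 to 229.5 CPM) and Cd22 (75.7 to 82.3 against 89.3 to 117 CPM) were lower in every S1P-treated library, and Pax5 (181 to 252 against 139 to 179.9 CPM) was higher. Markers of myeloid and NK cells summed to at most 3.16 CPM in any library, with S100a8 and S100a9 at 0. The part of these markers in the results below was not tested. In such bulk samples, fewer cells of a type and less RNA per cell cannot be told apart.

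**Figure D1:**
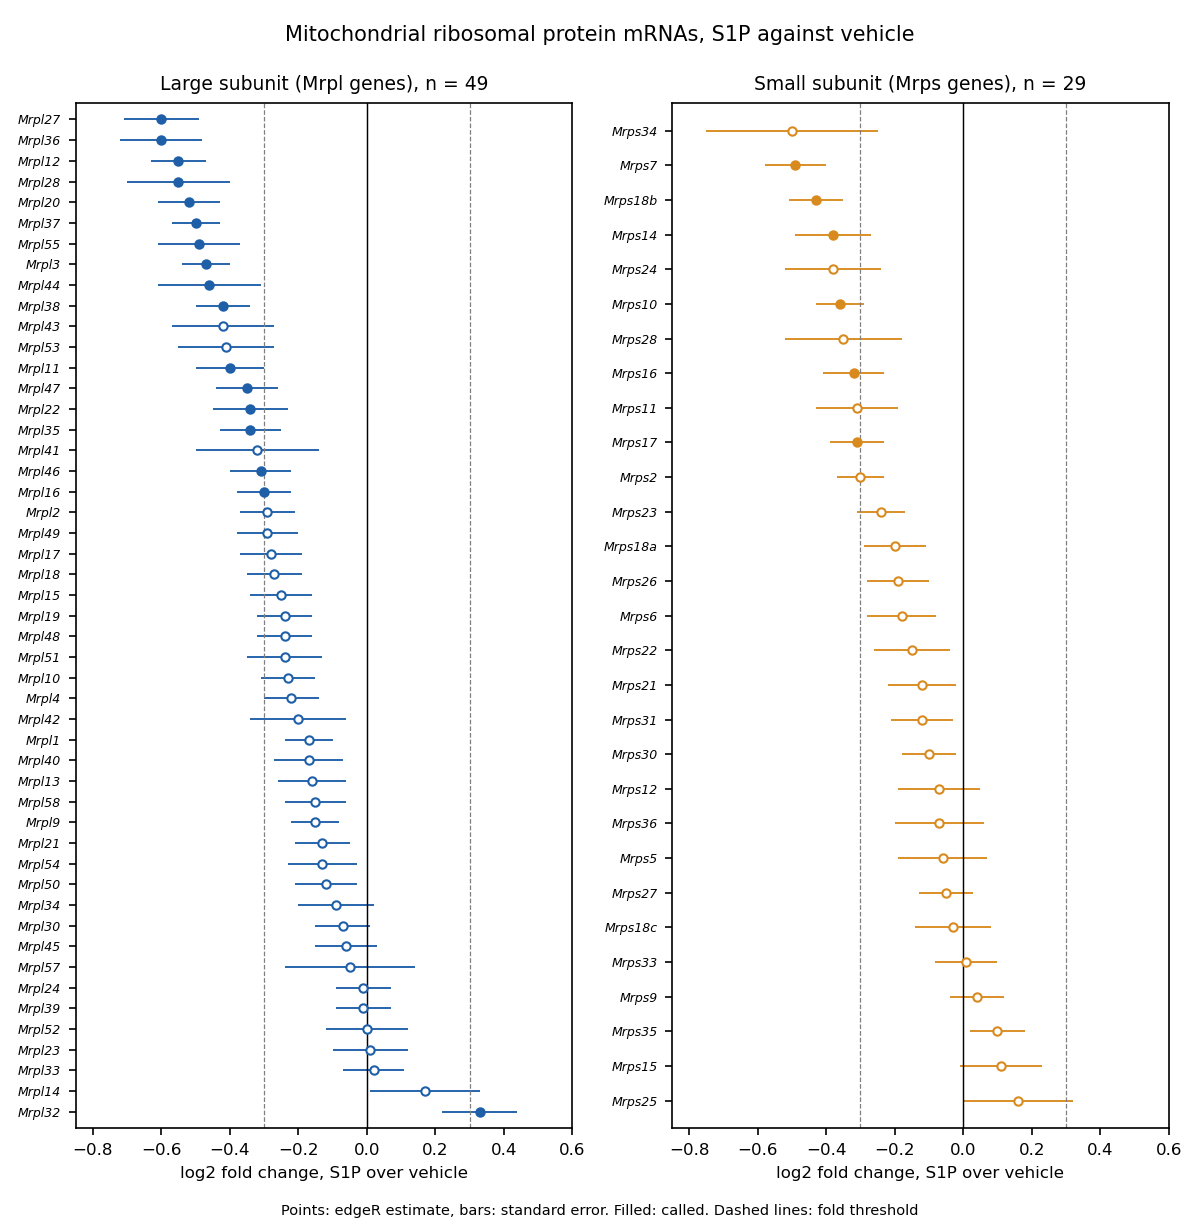
Log2 fold change of each member, S1P over vehicle, with standard errors derived from the edgeR test as bars. Panels show 49 Mrpl genes (left) and 29 Mrps genes (right), each sorted by size. Filled points are called, dashed lines mark the fold threshold of 0.3, and 68 of the 78 points lie below 0.

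The largest falls were in the large subunit. Mrpl36 (bL36m, a small zinc-binding protein in bacterial ribosomes; chr13:73476605-73480647 on GRCm39) stood at 31, 36.3 and 34.2 CPM in the vehicle-treated libraries and at 24.6, 17.4 and 24.2 CPM in the S1P-treated ones. The groups did not overlap, the second S1P-treated library was the lowest, and the log2 fold change was -0.60 ± 0.12 (SE; edgeR adjusted p = 0.00441). Mrpl27 (bL27m, which reaches toward the peptidyl transferase centre; chr11:94544584-94552984) went from 19.1, 20.2 and 23.3 CPM to 14.4, 12.7 and 14.1 CPM. Its change was the same in size, -0.60 ± 0.11 (SE; edgeR adjusted p = 0.00222), and the groups were again separate. As 49.5% of the 31-base words of its transcript also occur in other genes, with the pseudogene Mrpl27-ps sharing most, its counts are uncertain. Mrpl28 (bL28m; chr17:26342469-26345588) had close vehicle values of 27.5, 27.7 and 28.9 CPM and S1P values of 21.4, 13.2 and 22.2 CPM. The second S1P-treated library was well below the other two, and the change of -0.55 ± 0.15 (SE; edgeR adjusted p = 0.0186) became -0.36 without that library, where the call held (adjusted p = 0.00552), while leaving out any single vehicle-treated library gave an adjusted p of 0.0528 to 0.0681.

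The stalk of the large subunit recruits the GTPases that drive translation, and its genes were read separately. Mrpl12 (bL12m, the stalk protein itself, also described as a partner of the mitochondrial RNA polymerase; chr11:120375430-120381396) gave 83.8, 86.0 and 90.5 CPM after vehicle and 58, 54.6 and 65.7 CPM after S1P. Each S1P-treated library was far below the lowest vehicle-treated one, and the log2 fold change of -0.55 ± 0.08 (SE) had an edgeR adjusted p of 0.000627, the smallest of any member. Mrpl11 (uL11m, at the stalk base; chr19:5012163-5017100) fell from 35.6, 37.2 and 42.0 CPM to 27.7, 26.4 and 33.0 CPM, with a log2 fold change of -0.40 ± 0.10 (SE; edgeR adjusted p = 0.0133). Mrpl10 (uL10m, which carries the stalk) was at 40.8, 41.8 and 41.8 CPM after vehicle and 36.4, 32.5 and 36.7 CPM after S1P. Its groups were separate too, but at -0.23 ± 0.08 (SE; edgeR adjusted p = 0.0441) it did not reach the fold threshold, and 49.5% of its transcript overlaps exons of Gm11574 on the other strand.

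Of the 30 large-subunit proteins of bacterial descent, counted as structures assign them, 12 fell (40.0%), beside 10.4% of all tested genes. Others such as Mrpl4 (uL4m, -0.22) and Mrpl24 (uL24m, -0.01) were not called. Mrpl3 (uL3m, close to the peptidyl transferase centre; chr9:104930427-104958084) was read at 80.9, 83.8 and 84.4 CPM after vehicle and at 61.6, 54.9 and 63.4 CPM after S1P. These groups were tight and far apart, with a log2 fold change of -0.47 ± 0.07 (SE; edgeR adjusted p = 0.000935). Mrpl20 (bL20m, an early-binding assembly protein in bacteria; chr4:155887335-155894435) showed 42.0, 49 and 49.7 CPM and then 30.8, 33.6 and 33.9 CPM. The separation was complete, at -0.52 ± 0.09 (SE; edgeR adjusted p = 0.0015). Mrpl55 (bL31m; chr11:59093303-59098353) was a low member, with 10.8, 12.6 and 12.8 CPM after vehicle and 8.05, 9.13 and 8.71 CPM after S1P, and a change of -0.49 ± 0.12 (SE; edgeR adjusted p = 0.0134). Further genes of bacterial descent passed the test at smaller sizes, Mrpl47 (uL29m) at -0.35, Mrpl22 (uL22m, which lines the exit tunnel) at -0.34, Mrpl35 (bL35m) at -0.34 and Mrpl16 (uL16m) at -0.30. The reading of Mrpl22 is uncertain, because 41.2% of its 31-base words recur in other genes, with Gm6997 sharing most.

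Of the 21 mitochondria-specific proteins of the large subunit, 4 fell (19.0%), beside 10.4% of all tested genes. Mrpl37 (mL37; chr4:106912099-106924560) gave 55.6, 52.4 and 52.4 CPM after vehicle and 39.3, 37.8 and 35.8 CPM after S1P. With little spread in either group, its log2 fold change of -0.50 ± 0.07 (SE) had an edgeR adjusted p of 0.000633, although 29.9% of its transcript overlaps exons of Cyb5rl on the other strand and the strand setting of the counting is not given in the sources used here. Mrpl38 (mL38; chr11:116022641-116029700) was at 35.8, 34.5 and 35.3 CPM and then at 26.6, 24.9 and 27.4 CPM, a change of -0.42 ± 0.08 (SE; edgeR adjusted p = 0.00275). Mrpl44 (mL44, which has a fold related to RNase III; chr1:79753735-79759168) went from 28.2, 29.5 and 28.2 CPM to 24.0, 14.6 and 23.1 CPM. Here the second S1P-treated library carried much of the difference: the change of -0.46 ± 0.15 (SE; edgeR adjusted p = 0.0363) was -0.28 without it and was no longer called. Mrpl46 (mL46) fell by 0.31. Mrpl58 (mL62, a peptidyl-tRNA hydrolase that became part of the ribosome) was read at 23.6, 26.1 and 23.5 CPM after vehicle and 22.6, 20.6 and 22.5 CPM after S1P, with an edgeR adjusted p of 0.228.

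Mrpl32 was the exception. This gene encodes bL32m, which an inner-membrane protease processes before it joins the ribosome (chr13:14782769-14787750). Its levels were 45.4, 46.8 and 42.9 CPM after vehicle and 48.6, 68.1 and 54.3 CPM after S1P. All S1P values exceeded all vehicle values, but the second S1P-treated library was far above the other two. The log2 fold change was 0.33 ± 0.11 (SE; edgeR adjusted p = 0.0419), and without that library it was 0.19 and not called. Leaving out any 1 library but the first S1P-treated one ended the call. Mrpl14 (uL14m) had the second largest positive estimate, 0.17 ± 0.16 (SE; edgeR adjusted p = 0.456), from 6.34, 9.32 and 7.91 CPM after vehicle and 8.22, 8.34 and 9.89 CPM after S1P.

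**Figure D2:**
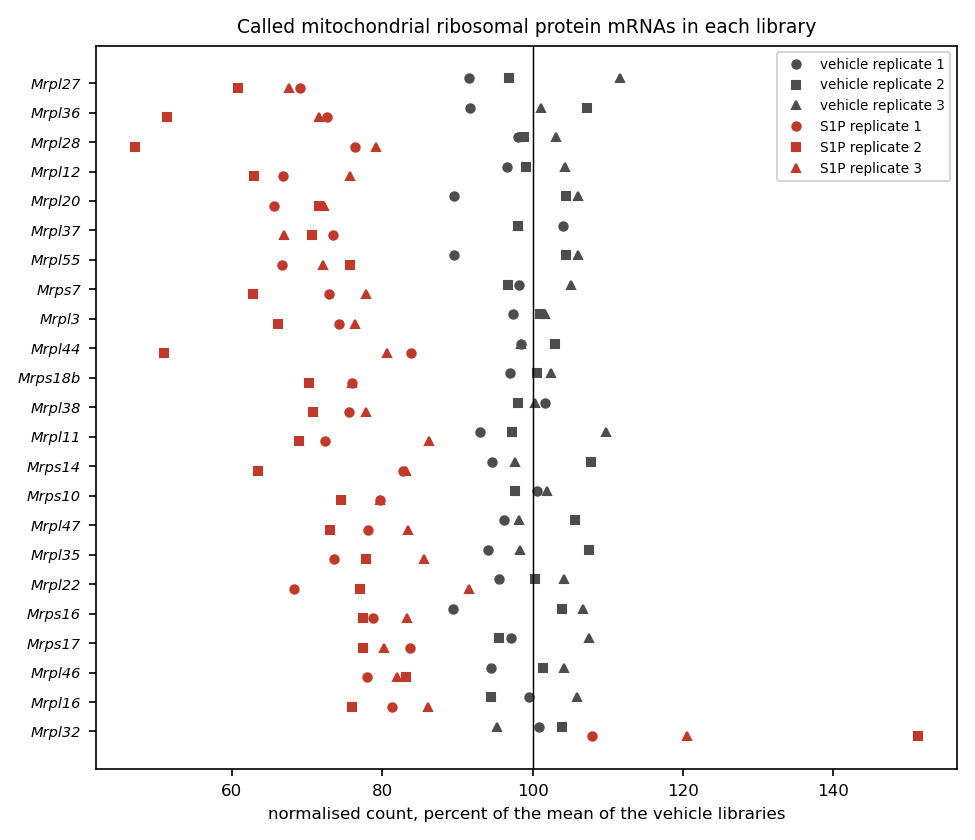
Normalised count of the 23 called members in each of the 6 libraries, as a percentage of the mean of the 3 vehicle-treated libraries of that gene; grey points are vehicle and red points S1P, with a symbol for each replicate number. The S1P points of 22 genes lie left of all vehicle points, and those of Mrpl32 lie right of them, with the second S1P-treated library farthest out.

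Promoter sequences of the members were read from RefSeq windows of 300 bases (250 before to 50 after the start, taken from GRCm38.p6 and placed on GRCm39 by exact match), which were found for 69 of the 78. Nuclear respiratory factor 1 (NRF1), ETS-family factors such as GABP, and YY1 are regulators long associated with nuclear genes for mitochondrial proteins, and MYC-type factors bind the E-box. A gene with more than 1 window was counted once if any of them held the letters. On both strands, GCGCANGCG (NRF1) was found for 16 members (23.2%), CCGGAAG (ETS) in 26 (37.7%), AAGATGGCG (YY1) in 8 (11.6%) and CACGTG (E-box) in 5 (7.25%). The shares among 9337 tested genes with a window were 15.5%, 21.4%, 3.75% and 12%. The letters can overlap one another, and a match is a description only. Among the 21 members that fell and had a window, 4 held the NRF1 letters, 5 the ETS letters, 3 the YY1 letters and 3 the E-box. Among the other 48 members these numbers were 12, 21, 5 and 2. The windows below are shown for the member with the largest fall (Mrpl36, chr13:73478878-73479177, plus strand), for another large-subunit member with the same pair of motifs (Mrpl37, chr4:106924014-106924313, minus strand), for the stalk protein (Mrpl12, chr11:120375213-120375512, plus strand) and for the single member that rose (Mrpl32, chr13:14787573-14787872, minus strand). The RefSeq start of the Mrpl37 window lies 497 bases from the start of its Ensembl canonical transcript. For Mrpl36, Mrpl12 and Mrpl32 this distance is 26, 24 and 128 bases. Capitals mark the matches: an E-box and YY1 in Mrpl36 and Mrpl37, NRF1 in Mrpl12, and 3 NRF1 matches in Mrpl32, of which 2 overlap on opposite strands.
Mrpl36: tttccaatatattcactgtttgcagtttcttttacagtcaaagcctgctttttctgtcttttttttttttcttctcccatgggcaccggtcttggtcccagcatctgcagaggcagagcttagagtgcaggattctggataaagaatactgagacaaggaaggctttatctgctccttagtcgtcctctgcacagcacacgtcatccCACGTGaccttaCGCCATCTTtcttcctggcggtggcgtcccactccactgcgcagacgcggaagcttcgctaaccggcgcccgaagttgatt
Mrpl37: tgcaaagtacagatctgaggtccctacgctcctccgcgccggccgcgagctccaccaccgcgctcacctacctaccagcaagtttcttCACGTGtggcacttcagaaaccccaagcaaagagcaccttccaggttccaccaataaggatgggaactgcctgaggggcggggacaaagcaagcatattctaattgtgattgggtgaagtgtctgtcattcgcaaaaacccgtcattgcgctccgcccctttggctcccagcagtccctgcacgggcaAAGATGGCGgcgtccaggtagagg
Mrpl12: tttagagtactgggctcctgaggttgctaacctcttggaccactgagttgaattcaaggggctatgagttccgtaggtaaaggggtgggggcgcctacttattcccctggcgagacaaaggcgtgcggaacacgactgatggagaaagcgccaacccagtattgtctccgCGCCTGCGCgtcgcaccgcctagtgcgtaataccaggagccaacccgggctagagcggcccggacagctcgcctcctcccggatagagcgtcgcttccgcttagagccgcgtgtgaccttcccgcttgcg
Mrpl32: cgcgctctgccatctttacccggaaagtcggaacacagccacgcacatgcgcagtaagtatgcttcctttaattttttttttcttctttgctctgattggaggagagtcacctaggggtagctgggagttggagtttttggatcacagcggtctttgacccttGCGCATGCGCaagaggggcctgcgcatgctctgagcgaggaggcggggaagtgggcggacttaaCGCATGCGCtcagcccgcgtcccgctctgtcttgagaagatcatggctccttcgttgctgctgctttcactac

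In the small subunit, 6 of 29 members fell and 0 rose in edgeR, with 0 higher also at an unadjusted p under 0.05, in DESeq2 and in limma-voom. Of all tested genes, 10.4% were lower and 12.7% were higher. Mrps7 (uS7m, around which the head of the subunit assembles; chr11:115494636-115498871) was at 52.7, 51.9 and 56.4 CPM after vehicle and at 39.1, 33.7 and 41.8 CPM after S1P. It showed the largest called change of the subunit, -0.49 ± 0.09 (SE; edgeR adjusted p = 0.00206), with separate groups. Mrps10 (uS10m, also in the head; chr17:47679620-47692441) gave 44.9, 43.6 and 45.5 CPM and then 35.6, 33.3 and 35.6 CPM. Spread was small in both groups, and the change of -0.36 ± 0.07 (SE) had an edgeR adjusted p of 0.00449, with 22.2% of its 31-base words recurring elsewhere. Mrps14 (uS14m, a head protein; chr1:160022785-160030541) went from 28.0, 31.9 and 28.9 CPM to 24.5, 18.8 and 24.6 CPM. Its change of -0.38 ± 0.11 (SE; edgeR adjusted p = 0.0253) was -0.26 without the second S1P-treated library, below the fold threshold. Mrps16 (bS16m) and Mrps17 (uS17m), proteins of the body of the subunit, fell by 0.32 and 0.31 on the log2 scale.

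The 3 genes named for bacterial protein S18 did not share a call. Mrps18b (mS40; chr17:36221266-36227606) stood at 27.2, 28.2 and 28.7 CPM after vehicle and at 21.3, 19.7 and 21.3 CPM after S1P. The groups were tight and separate, with a change of -0.43 ± 0.08 (SE; edgeR adjusted p = 0.00338). A share of 28.3% of its 31-base words recurs elsewhere, and 49.5% of its transcript overlaps exons of Gm16279 on the other strand. Mrps18a (mL66, which structures place in the large subunit) was at 29.2, 28.5 and 32.1 CPM and then at 28.4, 24.2 and 25.4 CPM, with an edgeR adjusted p of 0.13. Mrps18c (bS18m) gave 21.4, 21.6 and 18.7 CPM after vehicle and 19.1, 18.9 and 22.8 CPM after S1P, overlapping groups with a change of -0.03 ± 0.11 (SE; edgeR adjusted p = 0.881). The counts of Mrps18c are uncertain too, as 65.7% of its transcript overlaps exons on the other strand. Differences among the 3 genes were not tested.

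The largest positive estimates of the small subunit were those of Mrps25, Mrps15 and Mrps35. Mrps25 (mS25) was read at 26.7, 28.1 and 27.4 CPM after vehicle and at 23.0, 40.5 and 29.6 CPM after S1P. Mrps15 (uS15m) was read at 50.3, 51.6 and 51.0 CPM and then at 45.0, 67.1 and 53.8 CPM. Exons of Nr2c2 on the other strand overlap 58% of the Mrps25 transcript, so that its counts are uncertain. In both genes the first S1P-treated library was below and the second far above all vehicle-treated libraries, and neither was called (edgeR adjusted p = 0.477 and 0.519). Without the second S1P-treated library the estimates turned from 0.16 to -0.07 for Mrps25 and from 0.11 to -0.05 for Mrps15. Without the first S1P-treated library Mrps25 was at 0.35 and called higher (edgeR adjusted p = 0.0463). Mrps15 was then at 0.24 and not called (edgeR adjusted p = 0.0746). Mrps35 (mS35) was at 34.1, 34.8 and 36.1 CPM after vehicle and 35.0, 40.1 and 37.6 CPM after S1P (edgeR adjusted p = 0.388), and its estimate of 0.10 stayed positive, at 0.05 to 0.15, when 1 library was left out.

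The large subunit was compared with the small one over libraries, as a description. The 49 Mrpl genes summed to 1904, 1985 and 2019 CPM after vehicle and to 1595, 1682 and 1736 CPM after S1P, a mean of 1969 ± 59.3 and 1671 ± 71.1 (SD, n = 3 in each group). The 29 Mrps genes summed to 987, 1023 and 1040.0 CPM and to 861, 949 and 933 CPM, a mean of 1017 ± 27.2 and 914 ± 47.1 (SD, n = 3). In neither subunit did the groups overlap, and the S1P means were 84.9% and 89.9% of the vehicle means. The ratio of the sums was 1.93, 1.94 and 1.94 after vehicle and 1.85, 1.77 and 1.86 after S1P, so that it was lower in every S1P-treated library. By gene, 16 of 49 large-subunit members fell (32.7%) and 31 did not overlap downward, with a median log2 fold change of -0.24. For the small subunit the numbers were 6 of 29 (20.7%), 11 and -0.18. Of all tested genes, 10.4% were lower and 22.6% did not overlap downward. Without the first S1P-treated library the medians were -0.22 for the large and -0.10 for the small subunit. Without the third vehicle-treated library 9 large-subunit and 5 small-subunit members were lower, and without the second 10 and 4. Of all tested genes, 961 and 1145 were lower in these 2 fits. Counting Mrps18a and Mrps30 with the large subunit and leaving out Mrps36, which belongs to the 2-oxoglutarate dehydrogenase complex, gave 16 of 51 and 6 of 26. The medians of the subunits differed by -0.07 (large minus small), and by -0.12 without the first S1P-treated library. No test of the difference was made.

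**Figure D3:**
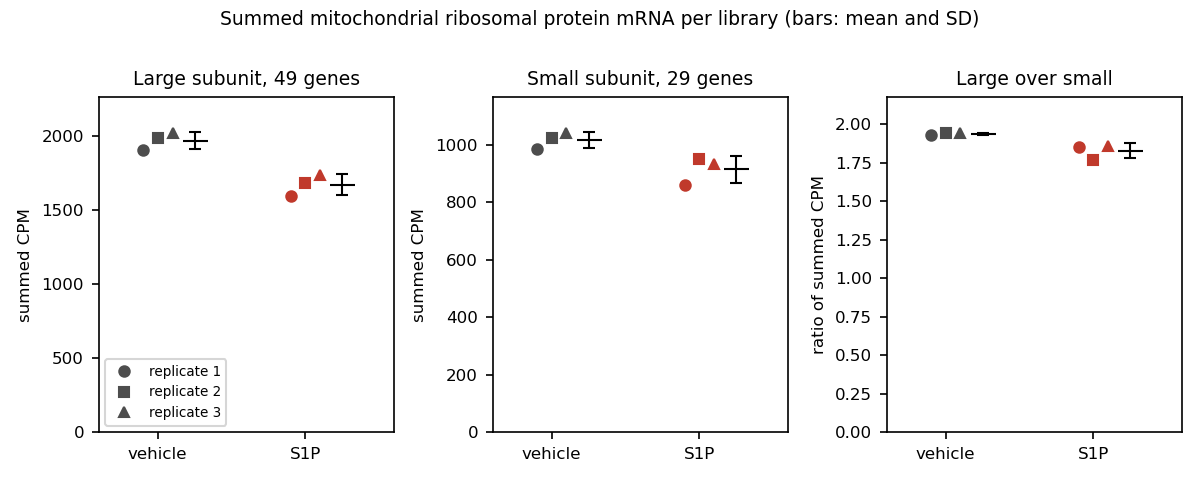
Summed CPM of the 49 Mrpl genes (left) and 29 Mrps genes (middle), and the ratio of the sums (right), in each library, with the mean and SD of the 3 libraries of a group as bars; axes start at 0. S1P-treated libraries lie below vehicle-treated ones in all 3 panels, at 1595 to 1736 against 1904 to 2019 CPM for the large subunit.

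The members were also sorted by origin as their structural names give it, again as a description. These names place Mrps18a (mL66) and Mrps18b (mS40) with the mitochondria-specific proteins, although both genes are named for bacterial protein S18. Of 46 proteins with a bacterial homologue, 17 fell (37.0%), and the median was -0.27. Of 31 mitochondria-specific proteins, 5 fell (16.1%), namely Mrpl37, Mrpl38, Mrpl44, Mrpl46 and Mrps18b, and the median was -0.19. Of all tested genes, 10.4% were lower. Within the large subunit as structures assign it, 12 of 30 proteins of bacterial descent and 4 of 21 specific ones fell. In the small subunit the counts were 5 of 16 and 1 of 10. The median GC content of the canonical transcript was 49% for members that fell and 49.9% for members not called, and the median length 1714 and 1804 bases. Across the 78 genes, which are not independent and share these 6 libraries, the log2 fold change had a Spearman rho of -0.21 with GC content, near the -0.16 found across 13260 tested genes.

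Levels between members are compared only per length, as CPM per kilobase of the Ensembl canonical transcript, averaged over the 6 libraries. The highest were Mrpl42 (88.1), Mrpl20 (52.1) and Mrpl13 (48.9), and the lowest were Mrpl55 (2.70), Mrps34 (3.76) and Mrps28 (3.86). Some of the annotated transcripts are long for such small proteins, with 3827 bases for Mrpl55, and 24.4% of the 31-base words of Mrpl42 recur in other genes, so that this order depends on the annotation. Neither end of the order was called as a whole: Mrpl20 and Mrpl55 fell, whereas Mrpl42, Mrpl13, Mrps34 and Mrps28 did not pass the test (edgeR adjusted p = 0.313, 0.254, 0.154 and 0.143). Without the second S1P-treated library, Mrpl42 went from -0.20 to -0.39 and was called lower (edgeR adjusted p = 0.00989). Without the first S1P-treated library it was at -0.03 (edgeR adjusted p = 0.858).

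Many of these genes start close to a gene that runs the other way. A neighbour of this kind, with starts up to 1000 bases apart or overlapping by up to 200, was found for 20 members. Mrpl46 and Mrps11 form such a pair with each other, 30 bases apart. Mrpl46 (chr7:78424922-78433279) went from 24.2, 26.0 and 26.7 CPM to 20, 21.3 and 21.0 CPM, and Mrps11 (uS11m) from 19.0, 21.1 and 15.7 CPM to 15.7, 13.5 and 15.6 CPM. Both log2 fold changes were -0.31, with an SE of 0.09 for Mrpl46, which was called (edgeR adjusted p = 0.0214), and of 0.12 for Mrps11, whose groups touched and which was not (edgeR adjusted p = 0.0828). The call of Mrpl46 held in 8 of the 13 alternative fits that kept every library. The window of Mrps11 (chr7:78432629-78432928 on GRCm39, plus strand, RefSeq) spans both starts and is shown for that reason, with a YY1 match in capitals.
Mrps11: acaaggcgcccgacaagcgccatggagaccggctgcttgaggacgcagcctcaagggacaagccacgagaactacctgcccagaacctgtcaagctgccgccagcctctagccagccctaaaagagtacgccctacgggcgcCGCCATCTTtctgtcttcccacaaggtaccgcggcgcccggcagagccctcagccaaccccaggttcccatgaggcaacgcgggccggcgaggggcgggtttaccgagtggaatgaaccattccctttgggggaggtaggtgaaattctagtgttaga
Of 17 tested neighbours that are not members, 3 fell and 3 rose, beside 10.4% and 12.7% of all tested genes, and in no pair did both genes have the same call, with only 4 of these neighbours beside a called member. The neighbours that fell included Eme2 at -0.83 (edgeR adjusted p = 0.0147) beside Mrps34 at -0.50, and Pnpla7 at -0.38 (edgeR adjusted p = 0.0331) beside Mrpl41 at -0.32, neither member being called. When 1 library was left out, Mrps34 ranged from -0.76 to -0.28 and Mrpl41 from -0.56 to -0.11. Mrpl41 was called lower without the second S1P-treated library. Psma2, a proteasome subunit 54 bases from Mrpl32, was at 219, 233 and 241 CPM after vehicle and 189, 204 and 217 CPM after S1P, a change of -0.19 (edgeR adjusted p = 0.0769) beside the 0.33 of Mrpl32. Fau, which encodes a cytosolic ribosomal protein and starts 52 bases from Mrpl49 (mL49), rose from 265, 311 and 297 CPM to 341, 399 and 368 CPM (log2 fold change 0.34 ± 0.08, SE; edgeR adjusted p = 0.01). Mrpl49 itself went from 32.0, 36.7 and 39.3 CPM to 28.2, 31.2 and 29.2 CPM, at -0.29 just under the fold threshold. Sars2, the mitochondrial seryl-tRNA synthetase 129 bases from Mrps12 (uS12m), fell by 0.49 with an SE of 0.11, whereas Mrps12 was at -0.07 ± 0.12 (SE; edgeR adjusted p = 0.703).

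Further proteins of the mitoribosome have symbols of another form. In edgeR 0 of 5 such genes were called, with 1 lower at an unadjusted p under 0.05 and 0 in DESeq2 or limma-voom. Dap3 (mS29) stood at 88.1, 84.9 and 84.2 CPM after vehicle and at 85.7, 58.4 and 82.1 CPM after S1P, where the second S1P-treated library alone was far lower. Ptcd3 (mS39) went from 137, 133 and 137 CPM to 114, 131 and 120 CPM without overlap (log2 fold change -0.16, edgeR adjusted p = 0.099). Aurkaip1, Gadd45gip1 and Chchd1 had log2 fold changes of -0.14, -0.22 and 0.09. The groups overlapped in 4 of the 5.

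Of 26 factors that build the mitoribosome, 9 fell (34.6%) and 1 rose, with a median of -0.25. Of all tested genes, 10.4% were lower and 12.7% were higher. Fastkd2, which binds the mitochondrial large ribosomal RNA, gave 60.2, 61.4 and 60.4 CPM after vehicle and 33.8, 35.5 and 39.3 CPM after S1P. The groups were far apart, at -0.75 ± 0.08 (SE; edgeR adjusted p = 8.13e-05). Mrm3, a methyltransferase of the same RNA, went from 14.4, 13.9 and 15.4 CPM to 7.82, 9.13 and 10.2 CPM (-0.70 ± 0.13, SE; edgeR adjusted p = 0.002). Mtg2, a GTPase of late large-subunit assembly, went from 15.0, 18.1 and 17.6 CPM to 10.6, 9.48 and 11.1 CPM (-0.69 ± 0.12, SE; edgeR adjusted p = 0.00151). Rcc1l at -0.55, the helicase Ddx28 at -0.50, the GTPases Noa1 at -0.42 and Eral1 at -0.38, the matrix protein C1qbp at -0.33 and the helicase Dhx30 at -0.32 fell too, with separate groups; the calls of Ddx28 and Eral1 ended without the third vehicle-treated library, and those of C1qbp and Dhx30 held in 5 and 3 of the 6 fits that left out 1 library. Mettl15, a methyltransferase of the small ribosomal RNA, rose by 0.40 at 5.48 to 7.93 CPM, and every fit that left out 1 library ended this call.

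The factors that run the finished ribosome were read next, beside the 10.4% of all tested genes that were lower. Of 17 tested translation factors 3 fell (17.6%) and 0 rose in edgeR, as in DESeq2 and limma-voom, with 1 higher at an unadjusted p under 0.05. Tufm, the mitochondrial elongation factor Tu, stood at 98.5, 96.4 and 100.0 CPM after vehicle and at 77.1, 68.2 and 75.1 CPM after S1P (-0.42 ± 0.07, SE; edgeR adjusted p = 0.00124). Lrpprc, which stabilises mitochondrial mRNAs, went from 198, 192 and 195 CPM to 146, 140.1 and 149 CPM (-0.43 ± 0.06, SE; edgeR adjusted p = 0.000572). Both genes had separate groups with little spread. Its partner Slirp was called lower too, but at 0.0878 to 1.33 CPM it rests on few counts. Of 11 genes for mitochondrial transcription and replication, 2 fell (18.2%): the RNA polymerase Polrmt, from 21.4, 21.2 and 23.1 CPM to 15.8, 13.5 and 15.9 CPM (-0.54 ± 0.10, SE; edgeR adjusted p = 0.00242), and the elongation factor Tefm at -0.48, which kept its call in 2 of the 6 fits that left out 1 library.

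The mRNAs that the mitoribosome translates were also read. In edgeR 0 of 12 tested mitochondrially encoded mRNAs were called, with 5 higher at an unadjusted p under 0.05, 2 higher in DESeq2 and 0 in limma-voom. The estimate was positive for 11 of them, and the median of 0.41 became 0.02 without the second S1P-treated library. Their sum was 35065, 40673 and 39005 CPM after vehicle and 37603, 74934 and 42404 CPM after S1P, so that the second S1P-treated library was far above the rest. The first S1P-treated library lay within the vehicle range and the third above it. Among these mRNAs, mt-Co2, mt-Co3, mt-Atp6, mt-Nd3 and mt-Nd4l were listed at only 1.67 to 14.1 CPM beside 11157 to 19339 CPM for mt-Co1, so that the sum covers what was counted and not the full set. The ratio of member mRNA to this sum was 0.0824, 0.0740 and 0.0784 after vehicle and 0.0653, 0.0351 and 0.0629 after S1P, lower in each S1P-treated library. Of 79 tested mRNAs for cytosolic ribosomal proteins, 8 rose (10.1%) and 1 fell (1.27%), with a median of 0.09, where 12.7% of all tested genes were higher and 10.4% lower. Their sum was 54667 to 59688 CPM after vehicle and 61058 to 66447 CPM after S1P. The groups did not overlap, and the difference from the mitochondrial ribosomal proteins was not tested.

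**Figure D4:**
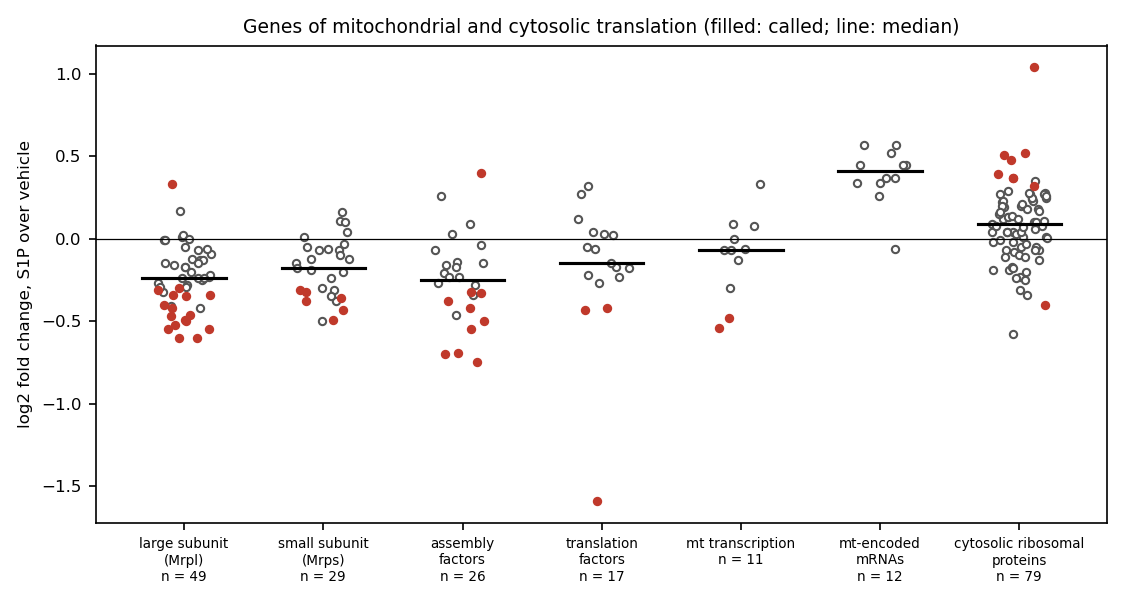
Log2 fold change, S1P over vehicle, of each tested gene in the large and small subunit and in 5 other lists; filled red points are called, open points are not, and lines are medians. Medians lie at -0.24 and -0.18 for the subunits, -0.25 for assembly factors, 0.41 for mitochondrially encoded mRNAs and 0.09 for cytosolic ribosomal proteins; horizontal scatter carries no value.

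By library, the shift of the members was of like size in all S1P-treated libraries. The median log2 ratio to the vehicle mean was -0.28, -0.22 and -0.19 in the 3 of them, and -0.04, 0.0082 and 0.04 in the vehicle-treated ones. Below the lowest vehicle value lay 64, 54 and 56 of the 78 members, and above the highest vehicle value 3, 11 and 9. The shares over all tested genes are not given for these counts, and some unchanged genes also lie outside the vehicle range. Over all 78 members, the lowest S1P value was in the first S1P-treated library for 41, in the second for 34 and in the third for 3. Among the 22 members that fell, the lowest value was in the second S1P-treated library for 16, in the first for 5 and in the third for 1. The call held in each of the 6 fits that left out 1 library for 10 of the 22, namely Mrpl3, Mrpl12, Mrpl20, Mrpl27, Mrpl36, Mrpl37, Mrpl38, Mrps7, Mrps10 and Mrps18b. Calls that ended were those of Mrpl16, Mrpl22, Mrpl28, Mrpl44 and Mrps14 without the first vehicle-treated library, of Mrpl22, Mrpl28, Mrpl35, Mrpl44, Mrpl46, Mrpl47, Mrpl55, Mrps14 and Mrps16 without the second, and of Mrpl11, Mrpl16, Mrpl22, Mrpl28, Mrpl44, Mrpl46, Mrpl55, Mrps14, Mrps16 and Mrps17 without the third. Among S1P-treated libraries, leaving out the first ended the calls of Mrpl22, Mrpl35 and Mrpl46, the second those of Mrpl16, Mrpl44, Mrps14 and Mrps17, and the third that of Mrpl44. The number of members lower was 14 without the second or the third vehicle-treated library, where 1145 and 961 of all tested genes were lower. A negative estimate in every fit made was found for 59 members.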

How the data were processed

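RNA-seq counts of 3 S1P-treated and 3 vehicle-treated libraries were used. The authors selected polyadenylated RNA, made strand-specific libraries, trimmed reads with Trim Galore, aligned them with STAR (GRCm39 in the submitters' processing notes) and ran featureCounts on the alignments. The deposited table holds the resulting raw counts per gene, not normalised. Which annotation release, strand setting and handling of multiply matching reads were used is not given in the sources used here. The authors tested with DESeq2, and their results were not used.

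Symbols, positions, canonical transcripts and overlaps came from GENCODE vM39 on GRCm39, which held 56323 of the 56941 identifiers. Of 34414 genes with at least 1 count, edgeR's filterByExpr kept 13299. After TMM scaling, treatment alone was fitted in the quasi-likelihood model of edgeR 4.0.16 (limma 3.58.1 and R 4.3.3), and p-values were adjusted over all tested genes by the Benjamini-Hochberg method. Calls required both an adjusted p no higher than 0.05 and an absolute log2 fold change of 0.3 or more. Each SE was derived from the edgeR test, as the absolute log2 fold change divided by the square root of its F statistic. The common biological coefficient of variation was 0.0826. All 6 count columns were used. The models were tested on simulated data beforehand. Alternatives were DESeq2 1.42.0, limma-voom, other scaling and filters, the replicate number as a block, GC and length offsets (lowess span 0.3), other thresholds, and each library left out.

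Genes named were called members (the 20 largest falls), the 5 largest rises and falls, the 3 highest and lowest by CPM per kilobase, the Mrps18 genes, the stalk proteins, Mrpl58, and up to 8 called genes per pathway list with the 5 other mitoribosome proteins. Mrpl46, Mrpl16, Mrpl49, Mrps11, Mrps12, the divergent neighbours and the last 2 assembly factors were named after their values were seen. Mrpl4, Mrpl24 and Mrpl41 were also named outside the rules above. Members and lists were chosen with earlier results of these data known.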

Additional observations from a re-analysis of the deposited data

How the results depend on the processing

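The count of 22 members lower ranged from 14 to 26 when 1 library was left out, with 14 without the second or the third vehicle-treated library and 26 without the second S1P-treated one. Over all tested genes the count of 1384 lower ranged from 961 to 1492 in the same fits. The member count was 10 with an adjusted p threshold of 0.01, where 826 of all 13299 tested genes were lower. With a log2 fold threshold of 0.58 it was 2, where 377 of all 13299 were lower. Of the 22 calls, 17 held in all 13 alternative fits that kept every library. Those of Mrpl16, Mrpl22, Mrpl46 and Mrps17 ended under upper-quartile factors, and those of Mrpl16, Mrpl44 and Mrpl46 with the length offset. The call of Mrpl46 also ended with the GC offset. The single member higher became 0 under limma-voom, with no filter on low counts, with the GC offset, with the replicate block and GC offset together, and under both stricter thresholds, and ranged from 0 to 2 over the fits without 1 library; Mrps25 was the second. The difference of the subunit medians, -0.07, was -0.10 with the GC offset, -0.12 with the replicate block and GC offset, and -0.12 to -0.05 when 1 library was left out. The median over members stayed between -0.26 and -0.19 in all fits. With no filter on low counts the median of all genes moved to 0.16. The causes of these moves were not tested.

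The replicate block gave 25 members lower and 1 higher, beside 1423 and 1697 of all 13299 tested genes. Deviations from the group means had correlations of 0.12, -0.00598 and 0.0483 between same-numbered libraries. Between differently numbered ones the correlations were -0.1 to 0.0496. Whether the numbers pair the cultures cannot be decided from these values, because deviations from the mean of so few libraries depend on one another. Reversed estimates among the 53 named genes counted below were Mrps18c without the first vehicle-treated (0.0037), the second vehicle-treated (0.0057), the first S1P-treated (0.02) or the second S1P-treated library (0.02), and 3 genes without the second S1P-treated library, namely Mrps15 (-0.05), Mrps25 (-0.07) and Chchd1 (-0.0046), which ranged up to 0.24, 0.35 and 0.22 without the first one. Mrpl24, cited above but not counted there, ranged from -0.07 to 0.02 when 1 library was left out. For 53 named genes, 921 of 1005 alternative values kept direction and call, 74 lost the call, 3 gained one and 7 reversed. The SE of Mrps34, read at 1.76 to 4.61 CPM, was 0.25.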
